A study of Bos taurus with 40 samples.

Results

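The hepatic response of cattle to feed restriction was examined at the end of Period 1, in 10 restricted (RES) bulls against 10 bulls fed ad libitum (ADLIB). These 20 animals were chosen by their diet and period from the 40 of the series. All were purebred Holstein-Friesian males on 1 ration of 70% concentrate and 30% grass silage, and the groups differed in the amount offered. RES were held to a growth of 0.6 kg per day, and liver was taken at day 125 of the period in both groups. The labels call the samples biopsies, whereas the paper describes tissue taken at slaughter. Bulls had been allotted to the diets in blocks that took account of age, sire, weight and earlier gain, were fed individually, and have no age in the labels. Each animal gave 1 library of single-end reads, so the spread below is that between animals together with that of extraction and library preparation.

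The liver takes up absorbed nutrients, makes most plasma proteins, and stores and releases glucose. Much of its messenger RNA comes from a small number of genes for secreted proteins, and very many other genes share the remainder. For a gene with few reads the counting error is large beside the variation between animals, and for a gene with many reads it is small. A test on read counts can therefore detect a small change in an abundant gene and miss a large one in a rare gene. In bulk tissue, fewer cells of a type and less RNA per cell cannot be told apart. The count tables carry Ensembl identifiers, and 0 of them matched a symbol in the reference used here. Genes are therefore described by their expression level, the liver label was not checked against marker genes, and only 4 genes are given singly.

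Reads counted on genes per animal numbered 9604046 to 13151862 in RES (median 11183630), against 9495786 to 12264153 in ADLIB (median 10778697.5). The percentage of counted reads that lay on genes averaged 75.8 (SD 1.79) in the 10 RES animals and 78.1 (SD 1.07) in the 10 ADLIB animals, lower in RES (two-sided permutation test, p = 0.00304). The number that opens the library name was 2 in 3 animals of RES and in 0 of ADLIB, and the other numbers occurred in both diets. What this number stands for is not stated.

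The share of genes called as changed was largest among the most abundant genes. The 12047 genes that reached 4 reads in each of the animals were cut into 5 groups of equal size by mean expression, from level 1 (lowest) to level 5 (highest). A gene was called when edgeR's quasi-likelihood test gave it an FDR (Benjamini-Hochberg) below 0.05 with an absolute log2 fold change of 0.32 or more, which is the fold-change limit. Over all these genes 10.3% were called, with 613 (5.09%) higher and 630 (5.23%) lower in RES. At level 5, 17.5% were called, and at level 1, 6.47%. The levels between them had 8.43%, 9.51% and 9.71% from low to high. Level 5 held 421 of the 1243 called genes and 88.2% of the reads. At this level the called genes were nearly balanced, with 208 higher and 213 lower.

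The balance of direction was not the same at each level. At level 2, 119 called genes were higher and 84 lower in RES. At level 4, 95 were higher and 139 lower. Level 1 had 81 higher and 75 lower, and level 3 had 110 and 119. These splits depended on the scaling. They rest on TMM normalisation, which sets the scale on genes in the middle of the distribution of ratios. With total reads on genes as the scale, the median log2 fold change rose by 0.098, and the called genes were 1184 higher and 378 lower. Higher genes were then in the majority at all 5 levels, with 342 against 140 at level 5, 223 against 74 at level 4 and 141 against 49 at level 1.

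The fitted change, which holds its own error, was largest at level 1 and smallest at level 4. Over all genes of a level, called or not, the median absolute log2 fold change was 0.21 at level 1, 0.17 at level 2, 0.16 at level 3, 0.14 at level 4 and 0.17 at level 5. Its 90th percentile was 0.58 at level 1, 0.38 at level 4 and 0.52 at level 5. The median standard error was 0.21 at level 1, 0.10 at level 4 and 0.11 at level 5. At level 1 the typical change was thus as large as its own error, with a median of 25.2 reads per animal behind it. At level 5 the median was 939 reads. The median share of the variance that counting error gives was 40.5% at level 1 and 2.84% at level 5.

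The called genes of level 1 had a median absolute log2 fold change of 0.77, against 0.51 at level 5 and 0.47 at level 4. Of the called genes, 127 changed at least 2-fold, and 40 of these were at level 1 and 32 at level 5. Among genes whose fitted change reached the limit of 0.32 in either direction, 20.4% were called at level 1 (156 of 765), 53.3% at level 3 (229 of 430) and 69.9% at level 5 (421 of 602). At an unadjusted p under 0.05 the share was 19.3% at level 1 and 38.0% at level 5.

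**Figure D1:**
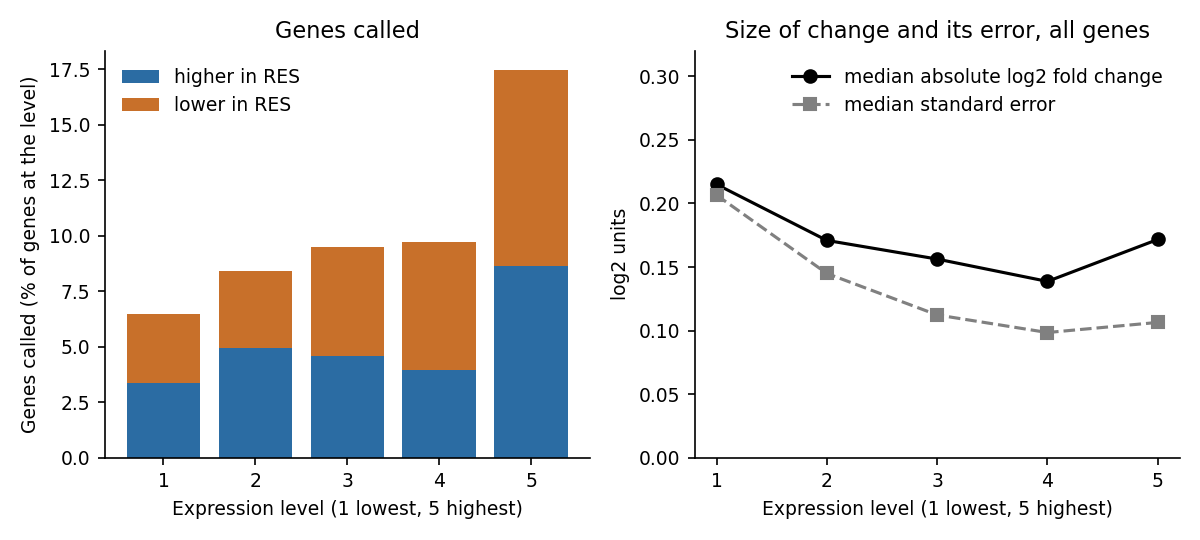
Left, the percentage of genes called at each level of mean expression, from 1 (lowest) to 5 (highest), with genes higher and lower in RES stacked. Right, the median absolute log2 fold change and the median standard error over all genes of each level, in log2 units. The percentage called rises from 6.47% to 17.5%, while the median change lies between 0.14 and 0.21 and its error between 0.10 and 0.21.

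The called genes made up a modest part of the liver's reads, and here the same contrast that chose them is described. Genes called higher took from 6.01% to 7.77% of the normalised reads in RES (median 6.90%). In ADLIB they took from 3.98% to 4.71% (median 4.30%). Genes called lower took between 6.22% and 8.79% in RES (median 8.28%), against 10.1% to 12.9% in ADLIB (median 12.1%).

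The 100 most abundant genes took a smaller part of the reads in RES. Their share lay between 47.6% and 54.2% in RES (median 51.3%), against 52.2% to 55.0% in ADLIB (median 53.8%). The ranges overlapped, and 2 RES animals, replicates 1 and 9, lay at 54.2%, above the ADLIB median. The means were 51.2 ± 2.21 (SD, n = 10) and 53.8 ± 1.00 (SD, n = 10), a difference of -2.60 percentage points (two-sided permutation test, p = 0.0031). Within the library-name numbers that held both diets the difference was -2.76, -4.69 and -1.43 points for numbers 1, 3 and 4. Within both diets this share tended to be lower in animals with a lower percentage of reads on genes, which was lower in RES. RES replicate 7 had the lowest of both, with 47.6% on the 100 genes and 73.0% on genes, and RES replicate 9 the highest of its group, with 54.2% and 79.6%. In ADLIB, replicate 2 had 52.2% and 76.9%, and replicate 4 had 55.0% and 79.6%. Other RES animals departed from this, replicate 1 with 54.2% and 76.3%, replicate 2 with 49.1% and 76.9%, and replicate 5 with 52.5% and 74.7%. The relation between both measures was not tested. The part of the percentage on genes in the difference was not tested.

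Of the 100 most abundant genes, 12 were called lower and 5 higher in RES, and 68 stayed below the fold-change limit in either direction. At level 5 as a whole 17.5% of genes were called, and over all genes tested 10.3%. The limit was reached by 602 of the 2410 genes of level 5. The median log2 fold change of the 100 genes was -0.13, beside 0.02 over all genes tested. For the 10 most abundant genes alone the share averaged 25.0% in RES and 27.6% in ADLIB, a difference of -2.61 points (two-sided permutation test, p = 0.00214).

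Full separation of the diets was rarer than a call. For 74 genes, 0.614% of those tested, all 10 RES animals lay above or below all 10 ADLIB animals in CPM, the read count scaled to the normalised library size. Of these, 36 were higher and 38 lower in RES, 72 were called, and 37 were at level 5. The other 2 had an FDR below 0.05 and a change below the fold-change limit. At level 5, 25 of these genes were higher and 12 lower, and at level 4, 3 were higher and 14 lower. These splits also rest on TMM scaling. With total reads on genes as the scale, 99 genes were separated. Separation did not need a large change. The median absolute log2 fold change of these genes was 0.65, the smallest was 0.30, and 24 changed at least 2-fold.

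Most called genes showed some overlap between the diets. For a called gene, the number of RES animals that lay beyond every ADLIB animal, in the direction of the change, had a median of 7 of 10 when higher and 6 of 10 when lower. At least 5 RES animals lay beyond all ADLIB animals for 84.0% of the genes called higher and 69.0% of those called lower. Over all 12047 genes tested, called or not, the median was 2 of 10, and 2165 genes had at least 5 such animals. The genes were called from the same animals, so a larger overlap was less likely among them. For 12 called genes no RES animal lay beyond all ADLIB animals, beside 1949 of the 12047 genes tested. Of these 12, 11 were lower in RES. The most extreme ADLIB animal of a gene sets this number, so 1 animal can move it. The part of any single animal in the difference between higher and lower genes was not tested.

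Of the separated genes at level 5, 35 were called, 24 higher and 11 lower. The pair with the largest rise and the pair with the largest fall were taken from these. Levels were cut on mean expression over both diets, so a gene can stand at level 5 through 1 diet alone. The lowest mean at level 5 was 40.1 CPM. ENSBTAG00000005596 had a median below this in ADLIB (4.69), and ENSBTAG00000034402 (17.9) and ENSBTAG00000016472 (19.6) had one below it in RES. The files do not pair their identifiers with gene names, so what they code for is not given.

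ENSBTAG00000005596 was nearly silent in several ADLIB animals and abundant in RES. Its CPM lay between 106 and 671 in RES (median 288), against 1.51 to 41.2 in ADLIB (median 4.69). The ADLIB animals were themselves far apart, with 3 of them (replicates 5, 8 and 9) between 19.6 and 41.2 CPM and the other 7 at 7.53 or less. The log2 fold change was 4.79 (standard error 0.66, FDR = 1.48e-04 in edgeR's quasi-likelihood test). ENSBTAG00000019700 changed much less but evenly. Its CPM lay between 147 and 266 in RES (median 201), against 58.9 to 117 in ADLIB (median 99.3), and the log2 change was 1.03 with a standard error of 0.12 (edgeR FDR = 1.18e-05). ADLIB replicate 7, at 58.9 CPM, was the lowest animal by a wide margin, and the other 9 ADLIB animals lay between 93.4 and 117.

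ENSBTAG00000034402 fell in RES. Its CPM lay between 6.21 and 60.2 in RES (median 17.9), against 64.8 to 257 in ADLIB (median 186). The ranges came close, since the highest RES animal (replicate 4) had 60.2 and the lowest ADLIB animal (replicate 8) had 64.8. The log2 fold change was -2.89 (standard error 0.37, FDR = 6.96e-05 in edgeR's quasi-likelihood test). ENSBTAG00000016472 lay between 4.64 and 31.5 CPM in RES (median 19.6), against 79.3 to 273 in ADLIB (median 128). A wide gap lay between the diets, and the log2 fold change was -2.77 (standard error 0.30, FDR = 1.18e-05). For both of these genes RES replicate 7 was the lowest animal and RES replicate 4 the highest of its group.

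**Figure D2:**
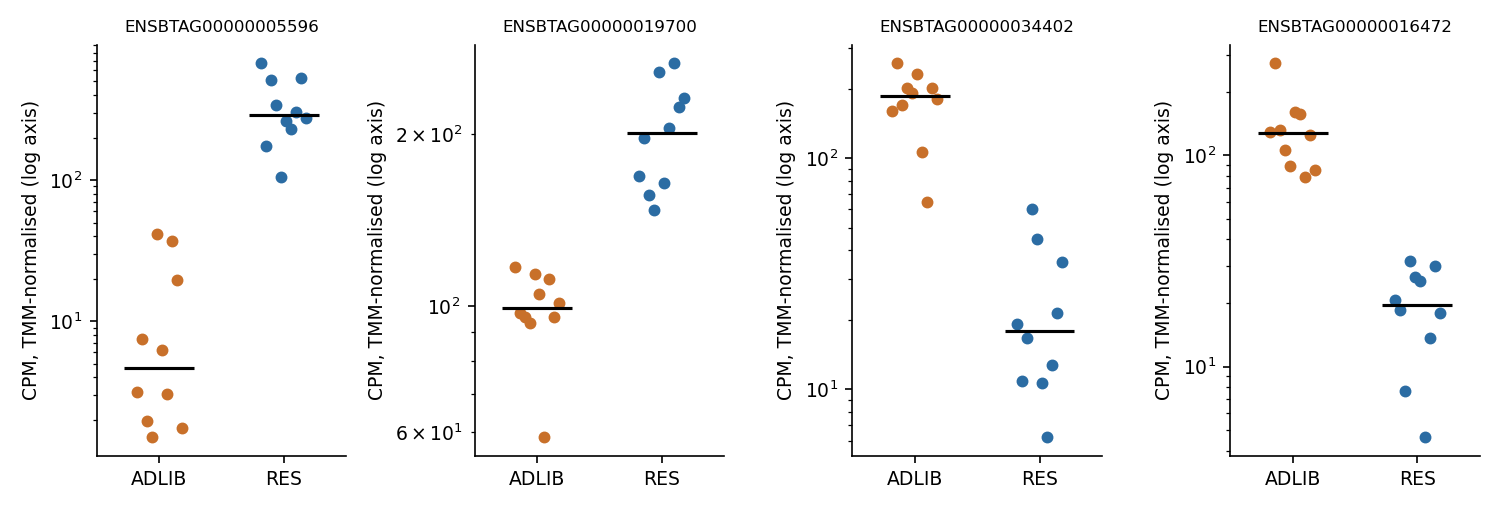
Normalised CPM of the 4 genes in each animal, on log axes, with 10 ADLIB and 10 RES animals per gene and a line at each median. The 4 were chosen among genes whose diets do not overlap. The gap is narrowest for ENSBTAG00000034402, between 60.2 and 64.8 CPM.

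The strength of the response differed between animals. To measure it in an animal that took no part in choosing the genes, the test was repeated without each animal in turn. The left-out animal's mean deviation from the other ADLIB animals was then taken over the genes called higher and over the genes called lower. Those ADLIB animals did take part in choosing the genes, and the list of genes differed from animal to animal. Over genes called higher, the deviation lay between 0.32 and 0.69 log2 units in RES (median 0.54), against -0.05 to 0.24 in ADLIB (median 0.05). Over genes called lower it lay between -0.88 and -0.31 in RES (median -0.59), against -0.41 to 0.12 in ADLIB (median -0.05). The diets did not overlap over the genes called higher. Over the genes called lower, ADLIB replicate 7, at -0.41, lay inside the RES range.

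Each RES animal moved in the direction of the group. Of the genes called higher without it, between 79.8% and 97.0% were above the ADLIB mean in the left-out RES animal. Of the genes called lower, between 71.7% and 97.7% were below it. For a left-out ADLIB animal the corresponding ranges were 43.8% to 76.7% and 32.5% to 88.9%. Response strength, the difference between both deviations divided by 2, lay between 0.34 and 0.76 in RES, against -0.09 to 0.33 in ADLIB. RES replicates 4 and 2 had the weakest responses of their group, at 0.34 and 0.35. RES replicates 7, 9 and 8 had the strongest, at 0.76, 0.72 and 0.68. ADLIB replicate 7, at 0.33, lay nearest to RES, and the next ADLIB animal had 0.15.

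These animals also moved the number of called genes most, which is not a separate result. Leaving an animal out changes the list over which its response was measured, so number and strength are tied. Without ADLIB replicate 7 the test called 1504 genes, without RES replicate 2 it called 1510 and without RES replicate 4 it called 1479. The lowest number, 1007, came without ADLIB replicate 2, which had the lowest response strength of all animals, at -0.09. Within the library-name numbers, mean response strength was 0.54 in RES and -0.01 in ADLIB for number 1. It was 0.72 and 0.03 for number 3, and 0.59 and 0.14 for number 4. Number 2 held 3 RES animals, with a mean of 0.43, and no ADLIB animal.

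**Figure D3:**
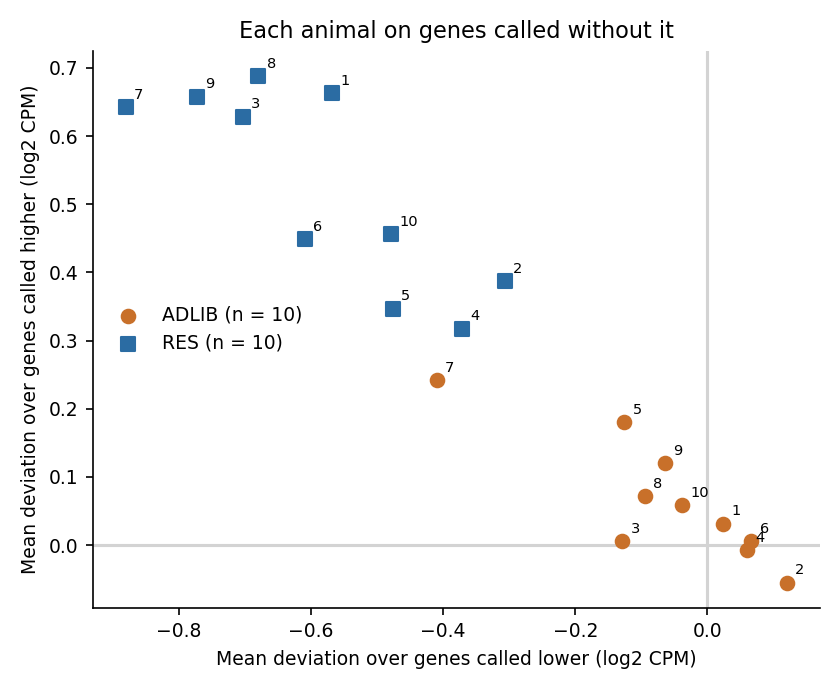
Mean deviation of each animal from the other ADLIB animals, over genes called higher (vertical axis) and lower (horizontal axis) in RES in a test that left that animal out, in log2 CPM. Points are animals with their replicate number. RES animals spread from 0.32 to 0.69 on the vertical axis, and ADLIB replicate 7 lies nearest to them.

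Values of the percentage on genes, which differed by diet, were set beside the response. With this percentage as a covariate the test called 394 genes in place of 1243, of which 370 were called without it, all 370 in the same direction. Level 1 then had 2.32% called and level 5 had 6.72%. RES replicate 7, with the strongest response, had the lowest percentage of all animals, at 73.0. RES replicate 9 had nearly the strongest response and 79.6% of reads on genes, within the ADLIB range of 76.7 to 79.6. Among the 10 RES animals, response strength and this percentage had a Pearson's r of -0.11 (permutation p = 0.765, adjusted p = 0.91 over 6 relations) and a Spearman's rho of -0.27 (permutation p = 0.45). Without the 2 animals farthest from the median percentage, r was -0.37. Among the 10 ADLIB animals r was -0.22 (permutation p = 0.566, adjusted p = 0.91) and rho -0.20 (permutation p = 0.585), and r without the 2 farthest was -0.06. The other relations were those with total reads on genes and with the share of the 100 most abundant genes, within each diet. The strongest of them was with total reads in ADLIB, with an r of -0.47 (permutation p = 0.173, adjusted p = 0.91) and a rho of -0.50 (permutation p = 0.143), and r was -0.05 without the 2 farthest animals. The part of the percentage of reads on genes in the diet effect was not tested further.

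RES animals were more unlike each other than ADLIB animals were. For each animal, the root mean square distance from the mean of the other 9 animals of its group was taken over all genes tested, in log2 CPM. It lay between 0.371 and 0.488 in RES (median 0.394), against 0.340 to 0.410 in ADLIB (median 0.360). The ranges overlapped, and RES replicate 7 was the most distant animal. The means were 0.407 ± 0.0371 (SD, n = 10) and 0.366 ± 0.0250 (SD, n = 10), larger in RES (two-sided permutation test over these values, p = 0.00842). Without RES replicate 7 the difference was 0.0324, in place of 0.0405 (permutation p = 0.0236). When these distances were averaged by library-name number, RES was the more distant for numbers 1, 3 and 4, by 0.0362, 0.0866 and 0.0107. Each distance was still taken from all other animals of the diet, whatever their number. In RES these included animals of a number that no ADLIB animal had. The part of the library-name number in the wider spread of RES was not tested. Over the 500 most variable genes the distance was 0.965 ± 0.135 in RES and 0.867 ± 0.0705 in ADLIB, a difference that did not pass the threshold (permutation p = 0.0502, n = 10 each). Distances within a group share animals, so these values are not independent, as the permutation test takes them to be. Labels were permuted over distances computed once, so the p-values of the spread may be too small.

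The wider spread in RES was present at each expression level. The median biological coefficient of variation, edgeR's measure of the variation that counting error does not give, was 0.265 in RES and 0.225 in ADLIB at level 1. It was 0.187 and 0.157 at level 3, and 0.198 and 0.165 at level 5. Both diets had their lowest value at level 4, with 0.173 and 0.147. The SD of log2 CPM was larger in RES for 63.5% of all genes tested, from 57.1% at level 1 to 70.7% at level 5. Called genes were much like the others in this, with a larger SD in RES for 65.2% of them and for 63.3% of the genes not called. Genes are not independent of each other, and these shares are given as a description.

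No single gene passed a test of its spread. In limma, on the absolute deviation of each animal from its group median, 0% of the genes tested were called at an FDR under 0.05. At an unadjusted p under 0.05 there were 497 genes, 4.13% of those tested, 405 with the larger spread in RES and 92 in ADLIB. That share is no larger than the threshold alone passes by chance. An F test of the variances, chosen after the data had been seen, also called 0. It gave 797 genes (6.62%) at an unadjusted p under 0.05, 615 of them wider in RES. Genes vary together across animals, so both splits are given as a description. The lowest FDR was 0.98 in limma and 0.26 in the F test.

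**Figure D4:**
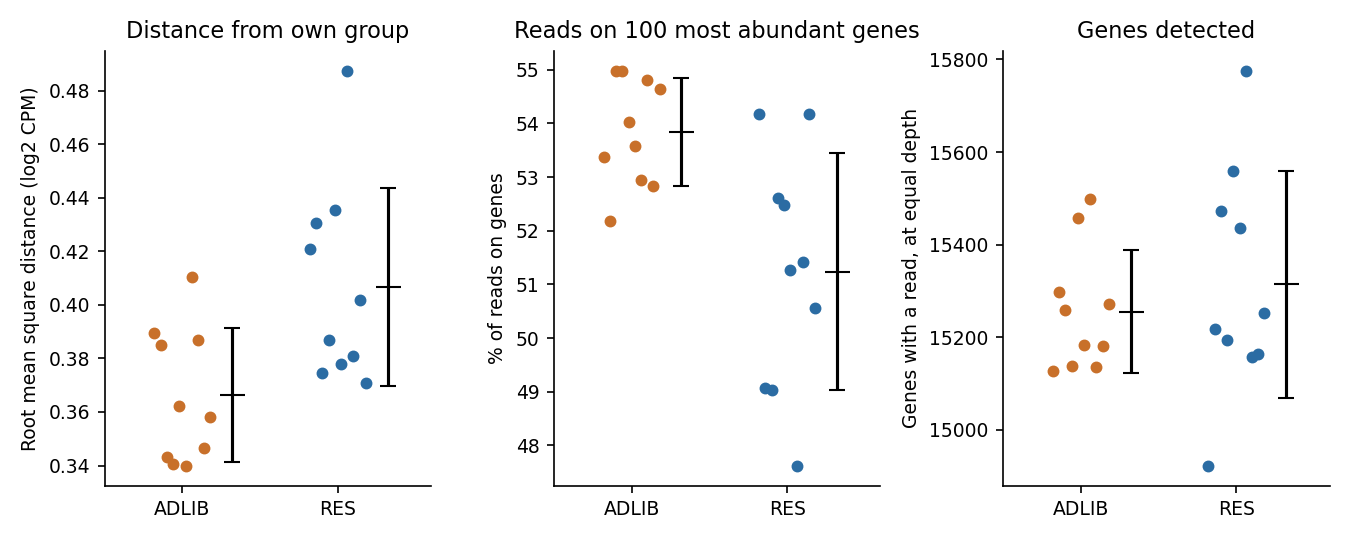
Per animal, the root mean square distance from the rest of its group (left, log2 CPM), the percentage of reads on the 100 most abundant genes (middle), and the genes with a read at equal depth (right), with mean and SD. RES lies higher on the left and lower in the middle, and the groups overlap in all panels.

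The number of genes detected did not differ detectably between the diets. After each library was thinned to 9495786 reads, the expected number of genes with at least 1 read ranged from 14922 to 15776 in RES (median 15235). In ADLIB it ranged from 15126 to 15499 (median 15221). The RES animals covered the wider range, with replicate 1 the lowest and replicate 7 the highest of all animals. The means were 15315 ± 245 and 15255 ± 133 (SD, n = 10 each; two-sided permutation test, p = 0.51).

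Genes with few reads were examined next. Of the 18447 genes with a read in any of the animals, 6400 had under 4 reads in at least 1 animal. They held 0.179% of the reads on genes. Of them, 3382 had under 20 reads over all 20 animals and were not tested. The remaining 3018, called low-count genes here, were tested together with the 12047 others. A low-count gene had a median of 4 reads per animal, and the highest mean was 488.2, since a single animal under 4 reads was enough to place a gene here.

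Low-count genes were called less often, and with larger changes. Of the 3018, 123 were called, which is 4.08%, beside 8.58% of all genes in this fit. With the percentage of reads on genes in the model the number was 50. Of the 123, 63 were higher and 60 lower in RES. At an unadjusted p under 0.05 there were 400, or 13.3%. The median absolute log2 fold change of those called was 1.63, the smallest was 0.90, and 115 of the 123 changed at least 2-fold. Over all 3018 the median absolute log2 fold change was 0.38 and the median standard error 0.44.

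The calls rose with the number of reads. With 20 to under 40 reads over the 20 animals, 13 of 726 genes were called (1.79%), and the smallest absolute log2 fold change among them was 1.87. With 40 to under 80 reads 19 of 768 were called (2.47%), and with 80 to under 160 reads 30 of 879 (3.41%). With 160 or more, 61 of 645 were called (9.46%), and the smallest was 0.90. This last group averaged at least 8 reads per animal and still had an animal under 4 reads.

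**Figure D5:**
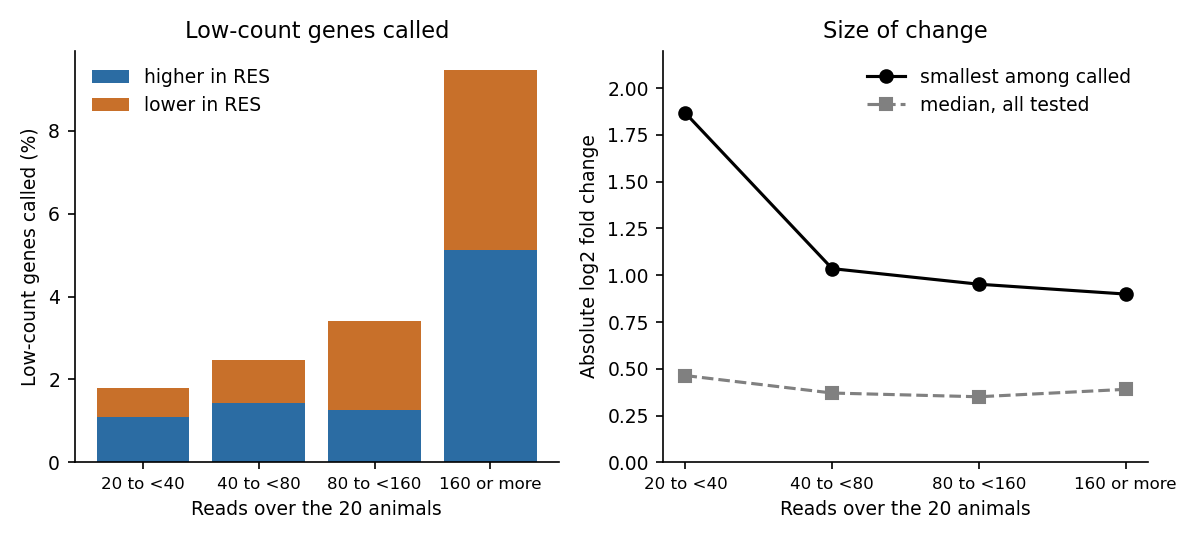
Left, the percentage of low-count genes called, higher or lower in RES, by their reads over the 20 animals. Right, the median absolute log2 fold change of all these genes and the smallest among those called, which falls from 1.87 to 0.90 while the median stays between 0.35 and 0.46.

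Among the 3018 low-count genes tested, 315 had at least 4 reads in all 10 RES animals and not in all ADLIB animals. For 222 it was the reverse. Such genes failed the filter through one diet alone, and 28 and 20 of them were among the 123 called. They were sorted by the diet that held the reads, so 28 against 20 gives no direction of response. The other 75 called genes, of 2481 tested, had under 4 reads in an animal of each diet. A read was seen in all 20 animals for 58 of the called genes.

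Clear presence against absence was rare. Of the 6400 genes, 13 were seen in at least 8 RES animals and at most 2 ADLIB animals, and 7 in at least 8 ADLIB animals and at most 2 RES animals. No gene was seen in all animals of one diet and in none of the other, and the largest difference was 9 animals in either direction. Reads in RES alone were found for 682 genes and in ADLIB alone for 641. The median of both sets was 1 read over the 10 animals, and 470 and 458 of them were seen in a single animal, where presence in one diet cannot be told apart from counting error.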

How the data were processed

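Single-end reads were aligned by the authors to UMD3.1 with TopHat and counted per Ensembl gene with HTSeq, and the read counts were deposited without normalisation. Strand setting of the counting is not given in the sources used here. Normalised values of the authors were not used. Gene rows alone entered library sizes. The 92 spike-in rows held 0 reads, and reads outside genes or on overlapping genes entered only the percentage of reads on genes. No pair of animals within a diet agreed within sampling noise (lowest chi-square per degree of freedom 19.0).

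The test used edgeR version 4.0.16 and R version 4.3.3 (quasi-likelihood, robust, TMM, no covariate), each standard error being the absolute log2 fold change over the square root of F. Log2 CPM used a prior count of 2. The paper prints its FDR threshold as 0.05 percent, which was read as 0.05. Values per animal were computed once and then compared by permutation of diet labels over them (100000 resamples). DESeq2 1.42.0, limma 3.58.1 and other settings were run as alternatives, and tests were tried on simulated data. The genes given singly were the called, non-overlapping genes of level 5 with the 2 largest rises and the 2 largest falls. Fixed lists of pathway and marker genes were not used, since 0 identifiers matched a symbol. The comparison, lists and settings were chosen with earlier results of these data known. Animal response strength and the covariate results by level were added after the data had been seen.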

Additional observations from a re-analysis of the deposited data

Results flagged for a closer look

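In 20 groups of 10 animals tested for a sample far from the others, of which chance marks about 1 in 20, 2 values stood apart. ENSBTAG00000019700 had 58.9 CPM in ADLIB replicate 7, far below the other ADLIB animals, and this is the ADLIB animal whose response strength lay nearest to RES, although the gene was higher in RES. ENSBTAG00000016472 had 273 CPM in ADLIB replicate 2, far above the others, the ADLIB animal with the lowest response strength.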

How the results depend on the processing

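The number of called genes was 1243 and stayed within 1.5 times of it in 8 of 10 alternatives, among them DESeq2 (1468) and limma's voom (1255). With the library-name number as a block it was 1706, the highest of these, and 1138 were shared with the 1243, all in the same direction. With total reads on genes as the scale it was 1562, and 991 were shared with the 1243, all in the same direction. Adding the percentage on genes as covariate gave 394, and at an FDR of 0.0005 it was 94. Without 1 animal it lay between 1007 and 1510. That covariate also gave 2.32% called at level 1, 6.72% at level 5, and 50 low-count genes. The other alternatives left these within 1.5 times. The cause was not tested. Low-count calls lay between 93 and 145 without 1 animal.

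The spread between animals kept its side of the threshold with other scaling and prior count, and was 0.0981 over the 500 most variable genes, with p = 0.0502 in the permutation test. Without 1 animal the difference lay between 0.0324 and 0.0477. For detected genes the range was 8.59 to 104, the lowest without RES replicate 7, and for the 100 most abundant genes -2.93 to -2.20 points. Spread per gene gave 0 calls in each setting. Non-overlapping genes numbered 81 and 99 in their alternatives.

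As to pairing, 4 of 10 same-numbered pairs of RES and ADLIB animals had deviations correlated above 0.1. The mean correlation over the 10 pairs was 0.092, against -0.010 over other pairs. Of 10 RES animals, 3 correlated best with their own number. These values do not settle whether the replicate number marks a pair, and the main test used no pairing. With this number as a replicate block 1458 genes were called, 7.14% at level 1, 19.6% at level 5, and 113 low-count genes. The median standard error was 0.44 log2 units in low-count genes, which had a median of 4 reads per animal.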
